A study of Mus musculus with 12 samples.

Results

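Dmpk encodes the muscle kinase whose human counterpart carries the repeat of myotonic dystrophy type 1, and it was examined here together with 6 other genes of the mouse heart. Dmwd and Six5 are its immediate neighbours on chromosome 7, and Cdc42bpa, Cdc42bpb, Rock1 and Rock2 encode kinases closely related to it. The 7 genes were taken by symbol from a table of 51826 genes, and every one of the 7 was listed there with counts in all 12 libraries. RNA was sequenced from the atria and the ventricles of 6 female FvB mice at 10 weeks of age, with 3 mice of each genotype and 1 atrial and 1 ventricular library per mouse. CUG960 +dox mice, labelled TREDT960I(H)/MHCrtTA(hemi), carried a transgene from which doxycycline induces RNA with 960 CUG repeats within human DMPK exons. MHCrtTA +dox controls, labelled MHCrtTA(hemi), lacked that transgene. Both groups carried the reverse tetracycline transactivator under the cardiomyocyte-specific promoter of alpha myosin heavy chain and both received doxycycline from postnatal day 1, so that the promoter confines induction to cardiomyocytes while the libraries hold RNA of all heart cells. The libraries held between 116127966 and 160676189 counts.

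In people with the disease, a CTG repeat in the 3′ untranslated region of DMPK expands, and the transcript, with its CUG repeat, is retained in nuclear foci that sequester muscleblind-like splicing factors. The protein is a serine/threonine kinase of the AGC class found in heart, skeletal and smooth muscle. Its closest relatives are the MRCK and ROCK kinases, which are bound by small GTPases and act on actomyosin largely through the myosin light chain and its phosphatase. SIX5, a homeodomain transcription factor, lies just downstream of the repeat and DMWD, a WD-repeat protein, just upstream of DMPK, and both have been studied as genes that a long repeat might affect in cis. In the CUG960 +dox mice the repeat sits in a separate transgene, so that the mouse copies of the 3 genes keep their own sequence.

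The 3 neighbours lie on the plus strand of chromosome 7 in the order Dmwd, Dmpk, Six5 (GRCm38, GENCODE M21). Dmwd spans chr7:19076227-19082776, Dmpk chr7:19083849-19093821 and Six5 chr7:19094594-19098549. Only 1072 bases separate the end of Dmwd from the start of Dmpk, and 772 bases separate the end of Dmpk from the start of Six5. The repeat itself is all but missing from the mouse gene. Among the 18 annotated Dmpk transcripts no run of CTG was longer than 3 units. Runs of 3 units lay at 2 positions, neither of them in an exon of the protein-coding transcript Dmpk-201. One is in the annotated coding part of Dmpk-218 (chr7:19092498-19092506), a transcript annotated as subject to nonsense-mediated decay. That run and the run of 2 units in the 3′ untranslated region of Dmpk-201 (chr7:19093351-19093356) are shown to set against the 960 units of the transgene, with the CTG units in capitals.
Dmpk-218, coding: cctctcgccCTGCTGCTGggctccgat
Dmpk-201, untranslated: tagccaccgCTGCTGcagcagctg

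The 250 bases upstream of the RefSeq start of each of the 3 adjacent genes (GRCm38.p6, plus strand) are shown. They were chosen because Dmpk and Six5 differed in opposite directions between the chambers with TMM scaling of library sizes, explained below. With library sizes taken as total counts, both log2 differences lay above 0 in controls (0.06 for Dmpk and 1.37 for Six5). The capitals mark an E-box (CANNTG) or a GC box (GGGCGG, or CCGCCC on the other strand). The 3 genes matched by symbol in the promoter table of 32851 mouse promoters.
Dmwd (chr7:19075950-19076199): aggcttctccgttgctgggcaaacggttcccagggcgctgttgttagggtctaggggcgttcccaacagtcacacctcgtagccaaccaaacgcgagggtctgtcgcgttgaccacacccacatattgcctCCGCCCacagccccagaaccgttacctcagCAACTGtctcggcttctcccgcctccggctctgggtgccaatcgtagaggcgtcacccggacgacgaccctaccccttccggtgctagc
Dmpk (chr7:19083608-19083857): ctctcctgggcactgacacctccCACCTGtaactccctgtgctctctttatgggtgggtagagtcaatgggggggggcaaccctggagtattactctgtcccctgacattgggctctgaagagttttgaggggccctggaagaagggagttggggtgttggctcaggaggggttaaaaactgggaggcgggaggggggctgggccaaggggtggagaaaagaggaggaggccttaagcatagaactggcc
Six5 (chr7:19094294-19094543): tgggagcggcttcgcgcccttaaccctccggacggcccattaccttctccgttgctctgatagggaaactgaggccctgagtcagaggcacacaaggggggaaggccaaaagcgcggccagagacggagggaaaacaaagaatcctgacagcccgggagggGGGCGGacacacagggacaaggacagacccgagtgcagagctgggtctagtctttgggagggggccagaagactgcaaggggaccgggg

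The upstream stretch of Dmpk differed from those of its neighbours in CpG content. It held 1 CpG dinucleotide at 58.4% G and C, while that of Dmwd held 20 at 62.4% and that of Six5 held 13 at 62.8%. Of all promoters in the table, 18.8% had no more CpG dinucleotides than Dmpk, 70.6% no more than Six5 and 83.7% no more than Dmwd. The Dmpk and Dmwd stretches each held 1 E-box and that of Six5 held none, against 66.2% of all promoters of this length. The Dmwd and Six5 stretches each held 1 GC box and that of Dmpk held none, against 32.7% of promoters. Neither TATAAA (12.4% of promoters), AGATAA (9.99%) nor AGGTCA (14.0%) occurred on either strand of the 3 stretches. GGTGTG occurred 2 times in that of Dmwd and not in the others (16.3% of promoters). Each E-box and GC box match stood apart from the other motifs searched.

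The libraries matched their chamber labels. Levels are given as CPM, counts scaled to a common library size with TMM factors, which are set so that most genes have the same level in all libraries. The 8 atrial cardiomyocyte markers summed to 29370 ± 1450 CPM in control atria and 157 ± 43.4 CPM in control ventricles, with Nppa as the most abundant in both, and the 8 ventricular markers to 1144 ± 62.2 and 16860 ± 2042 CPM, with Myl2 as the most abundant in the ventricles (9406 CPM, against 18 in the atria) and Myh7 in the atria (1060 CPM, against 1349 in the ventricles). In CUG960 +dox mice the atrial markers summed to 24370 ± 1082 and 263.8 ± 121 CPM and the ventricular markers to 1339 ± 128 and 18200 ± 751 CPM. General cardiomyocyte markers, led by Myh6, summed to 43610 ± 773 CPM in control atria and 54260 ± 1294 CPM in control ventricles. The CUG960 ventricular library of mouse V123 stood apart in several atrial markers. The atrial light chains Myl7 and Myl4 reached 55.9 and 86.3 CPM there, against 0.192 to 0.304 and 4.36 to 6.13 CPM in the libraries of V119 and V120 and 4.98 to 19.3 and 12.6 to 37.5 CPM in control ventricles. Sln, the regulator of the calcium pump in the atria, likewise reached 18.6 CPM, against 0.213 and 0.341 CPM in the others of its group and 2.90 to 7.84 CPM in controls. Bmp10 did not share that pattern (0.208 CPM in V123 and 2.39 to 3.75 CPM in controls), and Nppa was highest in V120 (224 CPM). The part of this in the values of the 7 genes was not tested. Without mouse V123 the log2 fold changes with genotype in the ventricles were 0.29 for Dmpk and 0.26 for Six5, neither past the threshold (adjusted P = 0.149 and 0.289 in edgeR), and those between the chambers of CUG960 +dox mice were -0.53 for Dmpk and 0.76 for Six5 (adjusted P = 0.000811 and 0.00119).

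Dmpk was by far the most abundant of the 7 genes. In the atria Dmpk stood at 432, 447 and 437 CPM in the 3 MHCrtTA +dox controls and at 475, 501 and 440 CPM in the 3 CUG960 +dox mice. In the ventricles it stood at 542, 601 and 582 CPM in controls and at 650, 757 and 600 CPM in CUG960 +dox mice. With this scaling every ventricular library lay above every atrial library, and within each chamber the genotypes overlapped. With library sizes taken as total counts, Dmpk stood at 449 to 499 CPM in control ventricles and 532 to 684 CPM in CUG960 ventricles, so that the genotypes stood apart there, as they did for 34.9% of all genes tested in the ventricles. The atria, at 483 to 519 CPM in controls and 516 to 577 CPM in CUG960 +dox mice, then overlapped the ventricles.

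Per kilobase of annotated exon, the scale on which levels can be compared between genes, Dmpk reached 101 ± 1.67 CPM in control atria and 133 ± 7.01 CPM in control ventricles (mean ± SD, n = 3). Dmwd followed with 17.4 ± 1.07 and 19.2 ± 1.64 CPM per kilobase, and Rock2 with 14.1 ± 0.428 and 16.3 ± 1.53. Cdc42bpb, the MRCK beta kinase, came next with 9.89 ± 0.972 and 9.22 ± 0.806 CPM per kilobase, and Rock1 after it with 6.27 ± 0.479 and 4.93 ± 0.391. Six5 and Cdc42bpa closed the order. Six5 stood at 5.399 ± 0.411 CPM per kilobase in control atria and 2.86 ± 0.328 in control ventricles. Cdc42bpa, the MRCK alpha kinase, stood at 3.28 ± 0.177 and 3.08 ± 0.582. In control ventricles the mean ± SD ranges of Dmwd and Rock2 overlapped, as did those of Cdc42bpa and Six5, and in control atria those of Rock1 and Six5 did. In CUG960 +dox mice Dmpk stood at 109 ± 6.96 CPM per kilobase in the atria and 154 ± 18.5 in the ventricles, and the other 6 genes between 2.86 and 20.5. The first 4 places of the order, from Dmpk to Cdc42bpb, were the same in all 4 groups. With the length of the longest transcript in place of all exons, Rock2 passed Dmwd (29.7 against 19.7 CPM per kilobase in control ventricles) and Rock1 passed Cdc42bpb (13.9 against 10.1), while Dmpk stayed first at 202 and Six5 last at 2.86.

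**Figure D1:**
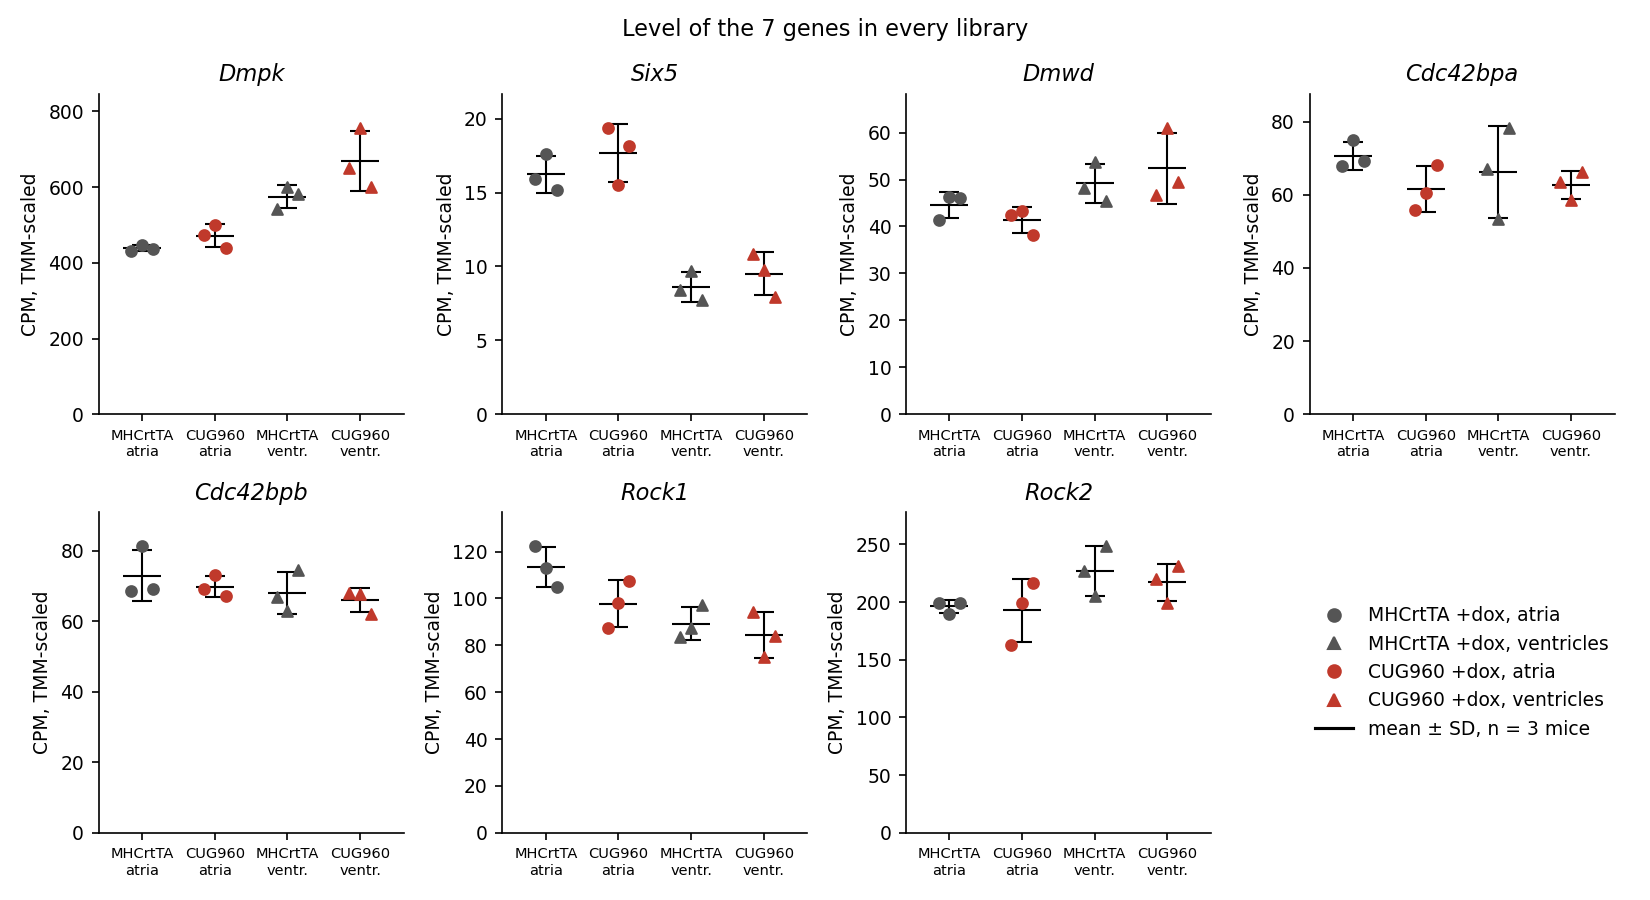
Level of each of the 7 genes in every library, in TMM-scaled CPM on linear axes that start at 0, with circles for atria, triangles for ventricles, grey for MHCrtTA +dox controls, red for CUG960 +dox mice and bars for the mean ± SD of 3 mice. Dmpk lay between 432 and 501 CPM in the 6 atrial libraries and between 542 and 757 CPM in the 6 ventricular libraries, and Six5 was higher in every atrial library than in any ventricular one.

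The question put to the genotype comparison was whether the mouse Dmpk locus and the related kinases changed in the heart that expressed the repeat RNA. None of the 7 genes passed an adjusted P value of 0.05 in the atria or in the ventricles (edgeR quasi-likelihood test, Benjamini-Hochberg over all genes tested), and for every one of them the 3 CUG960 +dox mice overlapped the 3 controls under TMM scaling. Among all genes, 14.6% of the 17650 tested passed an adjusted P value of 0.05 in the atria and 5.49% did so with a fold change of at least 1.5, which is the call used throughout. In the ventricles these shares were 9.94% and 4.75% of 16909 genes. The genotypes did not overlap for 35.7% of genes in the atria and 31.2% in the ventricles. At an unadjusted P value under 0.05 there were 2 of the 7 genes in the atria and 0 in the ventricles, and DESeq2 also called 0 in either chamber. Of all genes, 30.2% had an unadjusted P value under 0.05 in the atria and 25.7% in the ventricles.

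Dmpk was 1.07-fold its control level in CUG960 atria (log2 fold change 0.10, 95% interval -0.04 to 0.25, adjusted P = 0.318 in edgeR) and 1.16-fold in CUG960 ventricles (0.22, -0.0035 to 0.44, adjusted P = 0.201). Without mouse V120 these values shrank to 0.06 and 0.12, and with any 1 mouse left out they ran from 0.06 to 0.15 and from 0.12 to 0.29, none past the threshold (adjusted P between 0.124 and 0.629). With total counts the value was 0.14 in the atria (-0.0038 to 0.29, adjusted P = 0.173) and 0.33 in the ventricles (0.10 to 0.56, unadjusted P = 0.01, adjusted P = 0.064), where all genes had a median of 0.10. The upper end of the ventricular interval was thus 1.36-fold with TMM and 1.47-fold with total counts. Whether reads from the human DMPK exons of the transgene were counted under mouse Dmpk cannot be told apart from a change in the mouse gene, since every CUG960 library and no control library carried the transgene.

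Six5 stood at 15.9, 17.6 and 15.2 CPM in control atria and at 19.4, 15.5 and 18.2 CPM in CUG960 atria. In the ventricles it stood at 8.41, 9.68 and 7.74 CPM in controls and at 10.8, 9.80 and 7.92 CPM in CUG960 +dox mice. The genotypes overlapped in both chambers, with log2 fold changes of 0.12 (-0.11 to 0.35) in the atria and 0.15 (-0.16 to 0.45) in the ventricles (adjusted P = 0.45 and 0.552 in edgeR). With any 1 mouse left out these ran from 0.051 to 0.21 and from 0.044 to 0.26, and with total counts the ventricular value was 0.26 (adjusted P = 0.247).

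Dmwd stood at 41.5, 46.3 and 46 CPM in control atria and at 42.5, 43.3 and 38.1 CPM in CUG960 atria. In the ventricles it stood at 48.2, 53.7 and 45.5 CPM in controls and at 46.6, 61.0 and 49.6 CPM in CUG960 +dox mice. The CUG960 values overlapped those of the controls in both chambers. The log2 fold changes of Dmwd with genotype were -0.11 (-0.28 to 0.06, adjusted P = 0.349) in the atria and 0.09 (-0.15 to 0.34, adjusted P = 0.648) in the ventricles (edgeR), the latter being 0.20 with total counts (adjusted P = 0.246).

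The 2 genes with an unadjusted P value under 0.05 in the atria were Rock1 and Cdc42bpa. Rock1 stood at 122, 113 and 105 CPM in control atria and at 87.5, 97.9 and 108 CPM in CUG960 atria, where the highest CUG960 library lay above the lowest control (log2 fold change -0.22, -0.42 to -0.01, adjusted P = 0.142 in edgeR). In the ventricles it stood at 83.4, 87.3 and 97.1 CPM in controls and at 94.3, 74.8 and 84.1 CPM in CUG960 +dox mice (-0.08, -0.30 to 0.14, adjusted P = 0.67). Cdc42bpa ranged from 67.8 to 74.95 CPM in control atria and from 55.7 to 68.2 CPM in CUG960 atria (-0.20, -0.39 to -0.01, adjusted P = 0.148 in edgeR). Without mouse V123 the value for Cdc42bpa was -0.29 with an adjusted P of 0.0398 (edgeR), so that its side of the threshold rested on that mouse. Over the atria and ventricles of each mouse together, with TMM scaling, Rock1 was the only one of the 7 whose CUG960 +dox mice all lay below the controls (mean log2 difference -0.15, exact permutation test, two-sided, P = 0.1 with n = 3 against 3, the smallest value this design allows). The mouse means of the genotypes stood apart, in either direction, for 37.7% of all 18327 genes. For the other 6 genes that test gave P values between 0.2 and 0.9 (exact permutation test).

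Cdc42bpb and Rock2 had the log2 fold changes nearest to 0 of the 7 genes in both chambers. Cdc42bpb ranged from 62.1 to 81.2 CPM over all 12 libraries, and its log2 fold changes with genotype were -0.07 (-0.25 to 0.12) in the atria and -0.04 (-0.23 to 0.14) in the ventricles. Rock2 ranged from 163 to 248 CPM, with log2 fold changes of -0.03 (-0.25 to 0.20) and -0.06 (-0.27 to 0.15). As folds, the ventricular interval ran from 0.853 to 1.105 for Cdc42bpb and from 0.828 to 1.106 for Rock2.

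Some markers of the tissue's cell types also differed with genotype. Of 8 cardiomyocyte markers, 1 passed an adjusted P value of 0.05 upward and 1 downward in each chamber. Of all genes, 14.6% passed it in the atria and 9.94% in the ventricles. The median log2 fold changes of the 8 markers were -0.17 in the atria and -0.05 in the ventricles. Myh6, whose promoter drives the transactivator in both groups, stood at 25510 ± 380 CPM in control and 29800 ± 550 CPM in CUG960 atria (log2 fold change 0.22, adjusted P = 0.0393 in edgeR). In the ventricles it stood at 23310 ± 477 and 27650 ± 325 CPM (0.25, adjusted P = 0.131). Ryr2, the calcium release channel, was lower in both, at 790 and 546 CPM in the atria (-0.53, adjusted P = 0.0298) and 822 and 515 CPM in the ventricles (-0.67, adjusted P = 0.0148). The summed level of 8 endothelial markers was 962 ± 108 CPM in control and 745 ± 65.6 CPM in CUG960 atria, and 896 ± 74.9 and 683 ± 21.3 CPM in the ventricles, with Vwf as the most abundant in the atria, Kdr in the ventricles and none at 0. Of these 2 were called lower in the atria and 0 in the ventricles, beside 5.49% and 4.75% of all genes called. Of 8 fibroblast markers, 1 was called lower in the atria and 0 in the ventricles, beside the same shares. Their median log2 fold change in the atria was -0.28. Of the Schwann cell and neuron markers tested, 2 of 6 were called lower in the atria. In the ventricles 2 of 5 were called lower and 1 higher, again beside these shares. In the ventricles 8 smooth muscle markers summed to 904 ± 27.9 CPM in controls and 695 ± 33.4 CPM in CUG960 +dox mice. Of these 3 were called lower, beside 4.75% of all genes called. The 8 adipocyte markers summed to 586 ± 73.7 and 384 ± 42.8 CPM there, with 4 called lower beside the same share. Nearly all of the adipocyte sum was Fabp4 (579 and 381 CPM). Mitochondrially encoded genes took 15.3% to 18.4% of counts in CUG960 ventricles against 19.6% to 20.5% in control ventricles. The part of these in the values of the 7 genes was not tested.

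**Figure D2:**
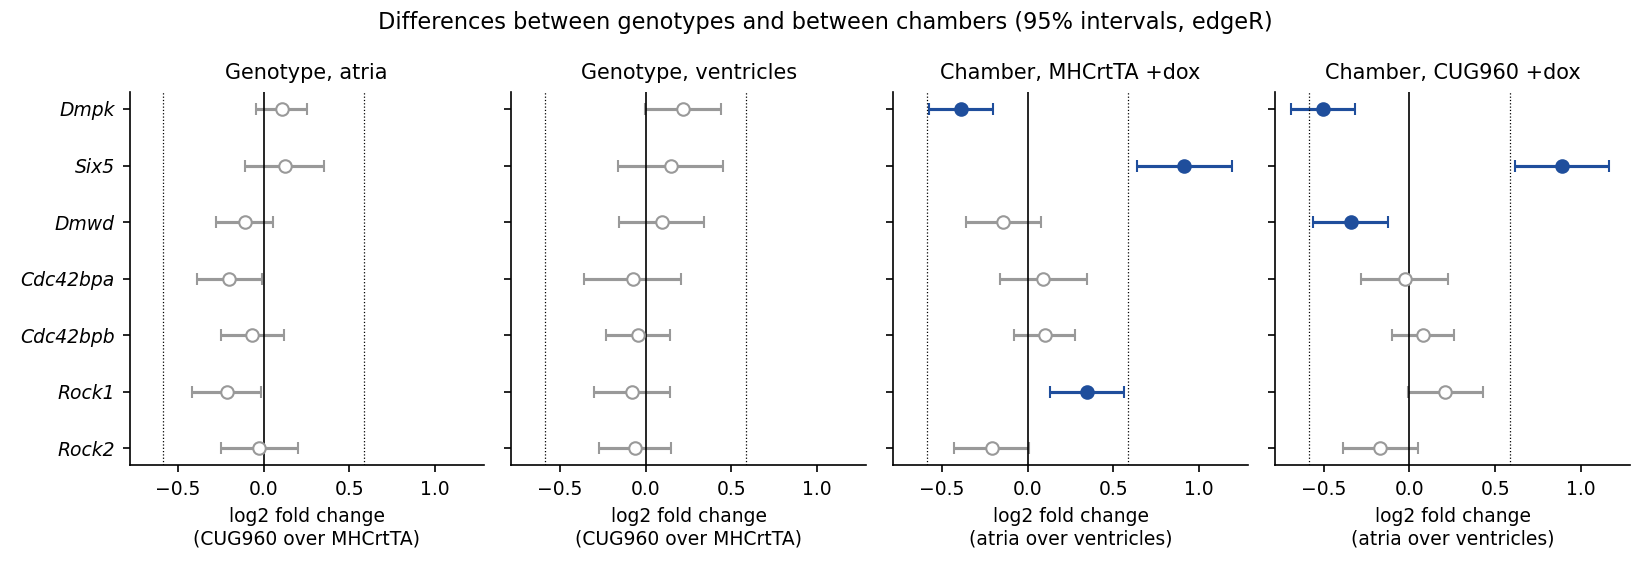
Log2 fold changes of the 7 genes with 95% intervals from edgeR, for CUG960 +dox mice over MHCrtTA +dox controls in each chamber and for atria over ventricles in each genotype, under TMM scaling, where filled blue points passed an adjusted P value of 0.05, open grey points did not, and dotted lines mark a fold change of 1.5. No gene passed with genotype, and Six5 passed both criteria between the chambers of both genotypes. With library sizes taken as total counts, every chamber value except that of Dmpk in CUG960 +dox mice lies above 0.

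The chambers separated the 3 neighbours. Six5 was higher in the atria by 1.89-fold in controls (log2 fold change 0.92, 0.64 to 1.19, adjusted P = 4.65e-05 in edgeR) and by 1.86-fold in CUG960 +dox mice (0.89, 0.62 to 1.17, adjusted P = 5.90e-05), and no atrial library overlapped a ventricular one. Dmpk was lower in the atria, at 0.763-fold its ventricular level in controls (-0.39, -0.58 to -0.20, adjusted P = 0.00175 in edgeR) and 0.706-fold in CUG960 +dox mice (-0.50, -0.69 to -0.32, adjusted P = 0.00027), but with library sizes taken as total counts the control value turned to 0.06 (adjusted P = 0.55) and the CUG960 value shrank to -0.12 (adjusted P = 0.229). Both differences of Dmpk were under the fold change of 1.5. Dmwd had log2 fold changes of -0.14 (adjusted P = 0.256 in edgeR) in controls and -0.34 (adjusted P = 0.0114) in CUG960 +dox mice, and with total counts these turned to 0.31, which passed in the other direction (adjusted P = 0.0143), and to 0.04 (adjusted P = 0.766). Without mouse V120 or mouse V123 the CUG960 value of Dmwd was -0.25 or -0.33 and missed the threshold (adjusted P = 0.0585 and 0.0519).

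Such differences were common among all genes. Between the chambers, 56.0% of 18327 genes passed an adjusted P value of 0.05 in controls and 54.3% in CUG960 +dox mice, 35.0% and 33.1% did so with a fold change of at least 1.5, and the chambers did not overlap for 63.0% and 61.2%. In bulk tissue a lower level may reflect fewer cells of a type or less RNA per cell, and these cannot be told apart.

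The choice of scaling moved the chamber values of all 7 genes. TMM factors ran from 1.117 to 1.187 in the atria and from 0.815 to 0.907 in the ventricles, and mitochondrially encoded genes took 10.9% to 12.2% of atrial counts. With total counts the median log2 difference of all genes was 0.49 in controls and 0.41 in CUG960 +dox mice, against 0.04 and 0.03 with TMM. Relative to that median, Dmpk stood at -0.43 under both scalings in controls and at -0.53 under both in CUG960 +dox mice. Six5 likewise stood at 0.88 under both scalings in controls and at 0.87 under both in CUG960 +dox mice.

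**Figure D3:**
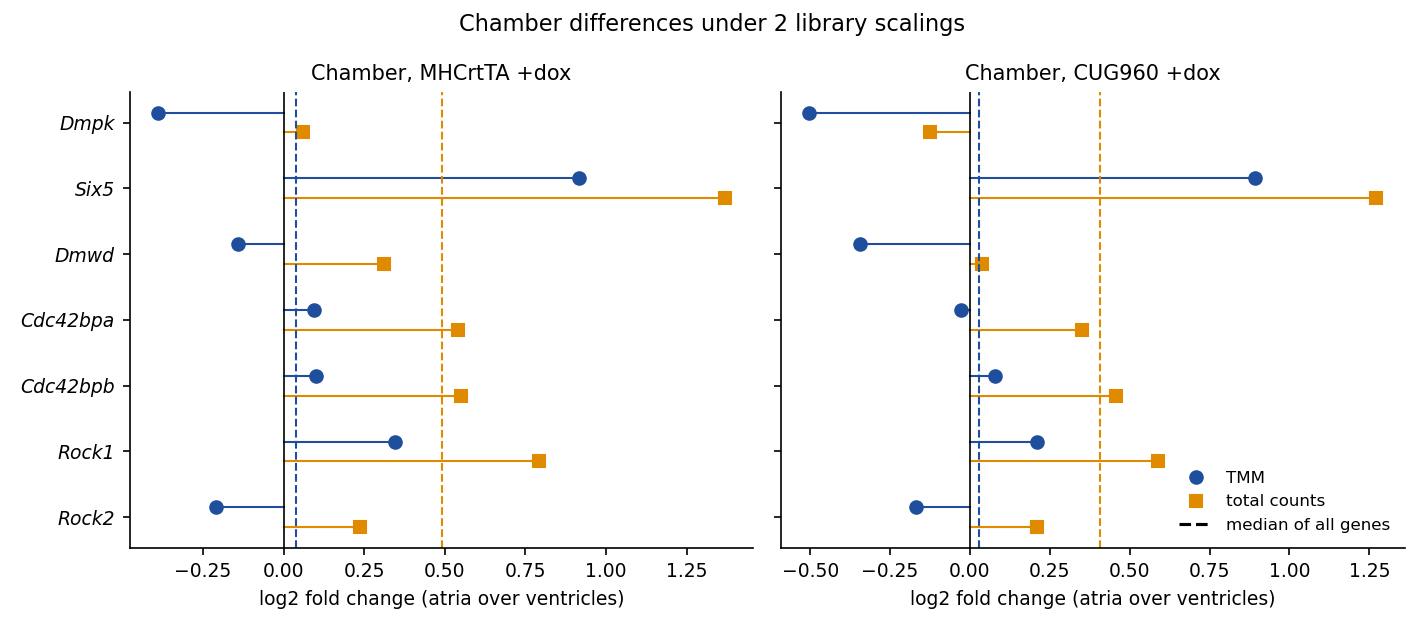
Log2 differences between atria and ventricles for the 7 genes in each genotype, with TMM scaling (blue circles) and with library sizes taken as total counts (orange squares), and dashed lines at the median of all genes under each scaling. Total counts moved every gene and the median upward together, so that Dmpk crossed from -0.39 to 0.06 in controls while its difference from the median stayed at -0.43.

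Ratios of counts between genes of the same library do not depend on how libraries are scaled. For every count of Dmpk there were 0.0368, 0.0394 and 0.0347 counts of Six5 in control atria and 0.0155, 0.0161 and 0.0133 in control ventricles. The same ratio in CUG960 +dox mice was 0.0408, 0.0309 and 0.0412 in the atria and 0.0167, 0.0130 and 0.0132 in the ventricles. It was thus higher in the atria in 6 of 6 mice, by 1.35 ± 0.151 on the log2 scale (exact sign-flip permutation test over mice, two-sided, P = 0.0312, the smallest that 6 mice allow, and 0.0536 after adjustment over 12 such tests). Dmpk itself, under TMM scaling, was lower in the atria in 6 of 6 mice (-0.443 ± 0.0878 on the log2 scale), with the same P values. Under TMM scaling Six5 was also higher in the atria by 0.909 ± 0.177 and Rock2 differed by -0.192 ± 0.156, in 6 of 6 mice each, again with those P values. The Rock2 difference was only -0.0038 in mouse V120, and with total counts Rock2 turned to 0.24 in controls and 0.21 in CUG960 +dox mice. The ratio of Six5 to Dmwd was higher in the atria of all 6 mice (1.146 ± 0.226 on the log2 scale).

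Dmpk and Dmwd, whose genes lie one after the other on the same strand, stood closer. The ratio of Dmpk to Dmwd was 10.4, 9.64 and 9.51 in control atria and 11.2, 11.2 and 12.8 in control ventricles. The CUG960 +dox mice had ratios of 11.2, 11.6 and 11.5 in the atria and 13.9, 12.4 and 12.1 in the ventricles. The ratio was lower in the atria in 6 of 6 mice, with a mean log2 difference of -0.21 ± 0.143 (exact sign-flip permutation test, P = 0.0312, 0.0536 adjusted). It was also the only one of 10 ratio comparisons between genotypes in which the groups stood apart, with all 3 CUG960 atria above all 3 control atria (log2 difference 0.21, exact permutation test, two-sided, P = 0.1 with n = 3 against 3, the smallest possible, and 0.75 adjusted). The caution about human DMPK reads holds for that ratio as well.

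Between the related kinases, the chambers parted Rock1 from Rock2. Rock1 was higher in the atria of controls by 1.27-fold (log2 fold change 0.35, 0.13 to 0.56, adjusted P = 0.0102 in edgeR), and without mouse V327 or mouse V333 it was 0.24 or 0.33 and missed the threshold (adjusted P = 0.133 and 0.0565). With total counts the value was 0.79 (adjusted P = 1.90e-05), past the fold change of 1.5. In CUG960 +dox mice the value was 0.21 (-0.01 to 0.43, adjusted P = 0.0943), which passed without mouse V119 (0.36, adjusted P = 0.0162) and with total counts was 0.59 (adjusted P = 0.000256). Rock2 stood at -0.21 (-0.43 to 0.01) in controls and -0.17 (-0.39 to 0.05) in CUG960 +dox mice, neither past the threshold (adjusted P = 0.0955 and 0.175 in edgeR), and turned to 0.24 and 0.21 with total counts. Independent of scaling, the ratio of Rock1 to Rock2 was 0.612, 0.598 and 0.525 in control atria and 0.368, 0.424 and 0.391 in control ventricles. In CUG960 +dox mice it was 0.536, 0.492 and 0.496 in the atria and 0.429, 0.375 and 0.363 in the ventricles. It was higher in the atria in 6 of 6 mice, by 0.47 ± 0.142 on the log2 scale (exact sign-flip permutation test, P = 0.0312, 0.0536 adjusted).

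With TMM scaling no difference between the chambers passed a test for the 2 MRCK kinases. The ratio of Cdc42bpa to Cdc42bpb lay between 0.807 and 1.06 in all 12 libraries, and its mean log2 difference between the chambers was -0.05 ± 0.107, lower in the atria in 5 of 6 mice (exact sign-flip permutation test, P = 0.281). Their log2 differences under TMM were 0.09 and 0.10 in controls and -0.03 and 0.08 in CUG960 +dox mice, in the order Cdc42bpa and Cdc42bpb. With total counts both were higher in the atria and passed, Cdc42bpa at 0.54 in controls and 0.35 in CUG960 +dox mice (adjusted P = 0.00222 and 0.028) and Cdc42bpb at 0.55 and 0.46 (adjusted P = 0.000204 and 0.000933). Relative to the median of all genes they stayed between -0.06 and 0.06 under both scalings. With a single mouse left out the sign turned for Cdc42bpa in both genotypes and for Cdc42bpb in controls.

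**Figure D4:**
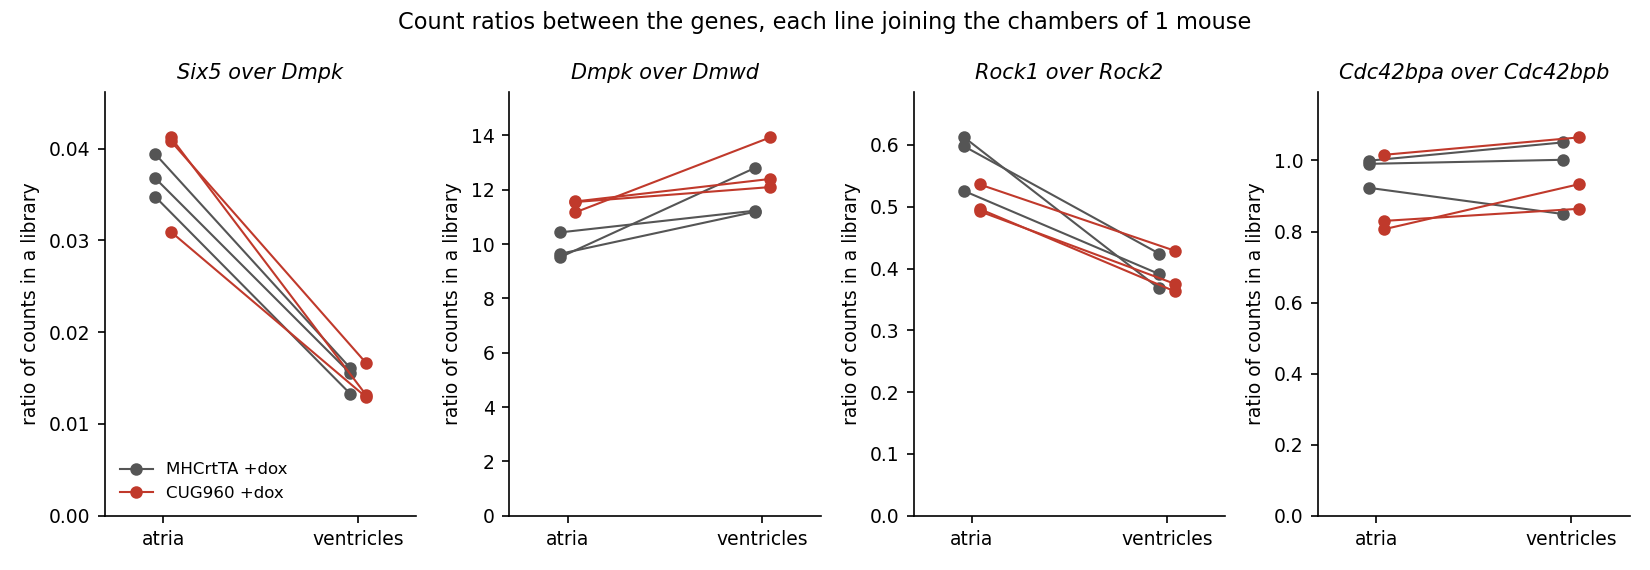
Ratio of counts between pairs of the 7 genes in each library, on linear axes that start at 0, with a line joining the atria and ventricles of each mouse, grey for MHCrtTA +dox controls and red for CUG960 +dox mice. The ratio of Six5 to Dmpk and that of Rock1 to Rock2 were higher in the atria of all 6 mice, that of Dmpk to Dmwd was lower in all 6, and that of Cdc42bpa to Cdc42bpb was lower in 5 of 6.

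For none of the 7 genes did the change with genotype differ between the chambers past the threshold. Across all genes 1.38% passed it (253 of 18327, edgeR interaction of chamber and genotype), against 0 of the 7, of which 0 had an unadjusted P value under 0.05 and 0 passed in DESeq2. That count of all genes was not stable, running from 74 to 131 with any 1 mouse left out and being higher in DESeq2. The difference between chambers in the genotype change was -0.11 for Dmpk (-0.38 to 0.15, adjusted P = 0.789), -0.02 for Six5 (-0.41 to 0.36, adjusted P = 0.978) and -0.20 for Dmwd (-0.51 to 0.11, adjusted P = 0.634). For the 4 kinases it lay between -0.14 (Rock1) and 0.04 (Rock2).

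Other cell types moved with chamber. The 8 fibroblast markers, led by Gsn, summed to 7717 ± 726 CPM in control atria and 2994 ± 166 CPM in control ventricles. In controls 7 of the 8 were called higher in the atria, beside 35.0% of all genes called. Macrophage and leukocyte markers, led by Lyz2, summed to 378 ± 181 and 129.6 ± 14.97 CPM. Smooth muscle markers summed to 510 ± 67.5 CPM, led by Acta2, and 904 ± 27.9 CPM, led by Rgs5, and adipocyte markers to 155 ± 24.6 and 586 ± 73.7 CPM. Fabp4, which endothelial cells also express, made up nearly all of the adipocyte sum (143 and 579 CPM). The median log2 difference of the 8 adipocyte markers was 0.67 toward the atria of controls. Of these 1 was called higher and 2 lower, beside the same 35.0% of all genes. Cfd (4.67 against 2.49 CPM) and Adipoq (2.57 against 1.45 CPM) had the higher mean in the atria without passing the test. Schwann cell and neuron markers summed to 48.2 ± 0.82 and 27.5 ± 1.25 CPM, with Mbp the most abundant in the atria, Uchl1 in the ventricles and 1 of 8 at 0 in control ventricles. No marker of the other lists had a group mean of 0, though the adipocyte marker Ucp1 was at 0 counts in some libraries. In CUG960 +dox mice, fibroblast markers summed to 6693 ± 632 CPM in the atria and 3010 ± 198 CPM in the ventricles. There 4 of 8 were called higher in the atria, beside 33.1% of all genes called. The part of these cells in the chamber differences of Six5, Dmpk and Rock1 was not tested.

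Of 36 genes that lie within 250 kb of Dmpk, 25 were expressed enough to be tested between genotypes, and 1, the same gene, was called in the atria and in the ventricles, beside 5.49% and 4.75% of all genes, so that the share was near the background. Gipr, the receptor of the incretin hormone GIP, lies 62239 bases downstream on the opposite strand. It stood at 2.41 ± 0.222 CPM in control and 0.817 ± 0.184 CPM in CUG960 atria (log2 fold change -1.56, SE 0.19, adjusted P = 0.00206 in edgeR). In the ventricles it stood at 0.327 ± 0.0296 and 0.0908 ± 0.0238 CPM (-1.84, SE 0.35, adjusted P = 0.013), and no CUG960 library overlapped a control library in either chamber. The lowest ventricular library held 10 counts of Gipr. Of the other genes between Dmpk and Gipr, Six5, Fbxo46, Qpctl and Snrpd2 were tested and not called, and Gm4969 was too low to be tested. The median log2 fold change of the 25 genes was -0.04 in the atria and -0.12 in the ventricles, beside -0.01 for all genes in both.

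Between the chambers, 5 genes of 26 tested were called higher and 3 lower in the atria of controls and 3 higher and 3 lower in CUG960 +dox mice, beside 35.0% and 33.1% of all genes. With total counts these were 14 higher and 2 lower in controls and 13 higher and 2 lower in CUG960 +dox mice. Of all 18327 genes, 7180 were then called higher and 1537 lower in controls, and 6148 and 1611 in CUG960 +dox mice. DESeq2 called 4 higher and 2 lower in controls and 3 higher and 2 lower in CUG960 +dox mice, for which no share of all genes is given here. Those called with TMM are named here after their values were seen. Gipr stood at 7.37-fold its ventricular level in control atria and 8.93-fold in CUG960 atria, and Six5 was another of those called higher in both. Ppm1n, a PP2C-type phosphatase gene, was called higher in both genotypes from at most 70 counts. Nova2, a neuronal splicing factor, was lower in the atria of controls (-1.60) and of CUG960 +dox mice (-1.44), and so was Opa3, a mitochondrial protein gene (-0.60 and -0.77). Gm26821, which lies within Nova2 on the opposite strand, was called lower and was at 0 counts in all 6 atrial libraries and in some ventricular ones. Whether reads were counted by strand is not given in the sources used here, so reads of Nova2 and Gm26821 may have been mixed. Fosb and Mypop were called higher in control atria, where Fosb ranged from 0.511 to 32.5 CPM and overlapped its ventricular values. With total counts Opa3 lost its call in both genotypes, and no gene called with TMM turned its direction.

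**Figure D5:**
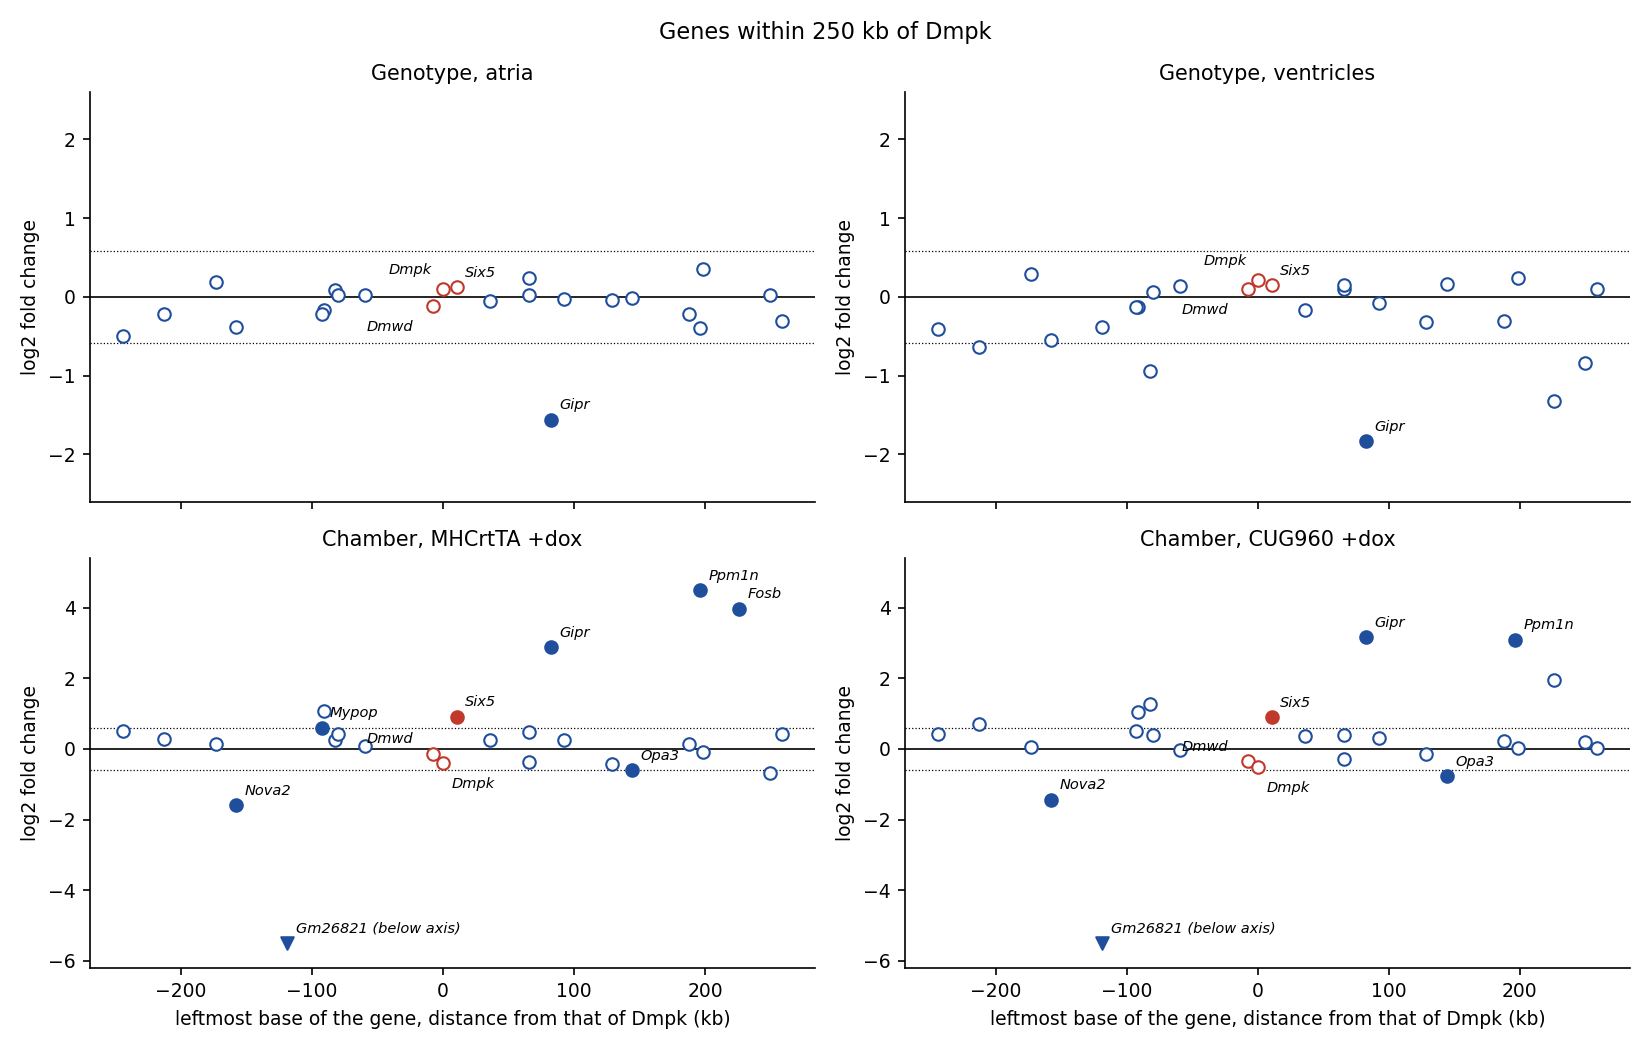
Log2 fold changes of the genes within 250 kb of Dmpk that were tested, plotted at the distance in kilobases between their leftmost base and that of Dmpk, for genotype in each chamber (upper panels) and for atria over ventricles in each genotype (lower panels), under TMM scaling, with called genes filled, Dmpk, Dmwd and Six5 in red, dotted lines at a fold change of 1.5 and a triangle for Gm26821, whose value lies below the axis. Gipr was the only gene called with genotype, at -1.56 in the atria and -1.84 in the ventricles.

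Of 11 DMPK, MRCK, ROCK, citron, NDR and LATS kinase genes, 0 were called with genotype in the atria and 0 in the ventricles by edgeR or DESeq2, beside 5.49% and 4.75% of all genes in edgeR. At an unadjusted P value under 0.05 there were 5 and 1, beside 30.2% and 25.7% of all genes. Under an adjusted P value of 0.05 alone, 2 of the 11, beside 14.6% of all genes, were lower in CUG960 atria, Stk38 (log2 fold change -0.24, adjusted P = 0.0482 in edgeR) and Lats1 (-0.29, adjusted P = 0.027), both named after their values were seen. The median of the 11 was -0.20 in the atria and -0.06 in the ventricles, beside -0.01 for all genes in each. Between the chambers, citron kinase (Cit), which acts in cytokinesis, was the only one called, beside 35.0% and 33.1% of all genes, at -0.76 in CUG960 +dox mice (adjusted P = 0.0165), and its call was lost with total counts. Under total counts 4 of the 11 were called higher in control atria, 3 in CUG960 atria and 0 lower in either. Among all 18327 genes, that scaling called 7180 higher in control atria and 6148 in CUG960 atria, and 1537 and 1611 lower.

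Among the genes downstream of these kinases, 0 of 21 ROCK and MRCK targets and adaptors were called with genotype in either chamber by edgeR or DESeq2, beside 5.49% and 4.75% of all genes, with 6 and 5 at an unadjusted P value under 0.05, beside 30.2% and 25.7%, and medians of -0.10 in the atria and 0.01 in the ventricles. Between the chambers 2 were called higher and 2 lower in the atria of either genotype, beside 35.0% and 33.1% of all genes called. With total counts 9 were called higher in controls, 8 in CUG960 +dox mice and 0 lower in either. These stand beside 7180 of 18327 genes called higher in controls and 6148 in CUG960 +dox mice with total counts, and 1537 and 1611 lower. Myl9, the regulatory light chain of smooth muscle myosin, was 4.17-fold higher in control atria (294 ± 22.3 against 70.6 ± 7.28 CPM) and 4.30-fold higher in CUG960 atria. Ppp1r14a, an inhibitor of myosin light chain phosphatase, was 1.81- and 2.04-fold higher. Myl12a, the non-muscle light chain, was lower (-0.88 and -0.92), and its call was lost with total counts. Of the 8 smooth muscle markers, Cnn1 was higher in control atria (35.7 against 2.68 CPM). Another 5 were called lower, Rgs5 among them (89.9 against 488 CPM), beside 35.0% of all genes called. Acta2 stood at 167 and 120 CPM (adjusted P = 0.147 in edgeR). Their part in the difference of Myl9 was not tested.

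Among 11 binding partners and proposed substrates of DMPK, 2 were called in the atria and 0 in the ventricles, beside 5.49% and 4.75% of all genes. At an unadjusted P value under 0.05 there were 6 and 2, beside 30.2% and 25.7%, and DESeq2 called 0 in the ventricles. Mapt, the microtubule-associated protein tau, rose from 24.7 ± 4.45 to 41.9 ± 5.56 CPM in the atria (0.76, adjusted P = 0.00982 in edgeR). Hspb1, a small heat shock protein, fell from 294 ± 98.9 to 164 ± 32.0 CPM (-0.84, adjusted P = 0.0465). The median of the 11 was -0.09 in the atria and -0.05 in the ventricles. Phospholamban (Pln), the inhibitor of the cardiac calcium pump and a proposed DMPK substrate, was 1.43-fold its control level in CUG960 atria (adjusted P = 0.017 in edgeR), under the fold limit. Between the chambers, 1 of the 11 was called higher in the atria and 4 lower in controls and 0 higher and 4 lower in CUG960 +dox mice, beside 35.0% and 33.1% of all genes. With total counts these were 2 and 3 in controls and 1 and 3 in CUG960 +dox mice. The same scaling called 7180 of all 18327 genes higher and 1537 lower in controls, and 6148 and 1611 in CUG960 +dox mice. Hspb1 was the one called higher in control atria (294 against 190 CPM, 0.63, adjusted P = 0.0267), where its libraries overlapped those of the ventricles. Pln was lower in the atria of controls (-3.09) and CUG960 +dox mice (-2.69). Mapt (-1.97 and -1.42), Cacna1s, a calcium channel subunit (-3.02 and -3.27), and the chaperone Cryab (-0.66 and -0.65) were lower in the atria as well, the call of Cryab being lost with total counts.

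Six5 and its homeodomain relatives bind DNA together with EYA proteins, coactivators that carry phosphatase activity, and DACH proteins, corepressors. Of 12 genes listed from these families, 9 could be tested. With genotype 0 were called in the atria and 1 in the ventricles, beside 5.49% and 4.75% of all genes. Eya1 rose in the ventricles from 1.21 ± 0.199 to 3.30 ± 1.31 CPM (1.45, adjusted P = 0.0167 in edgeR), while in the atria, where it stood at 7.98 ± 2.31 and 11.75 ± 0.89 CPM, it missed the threshold (0.56, adjusted P = 0.0781). The difference between the chambers did not pass (adjusted P = 0.371). The median of the 9 was 0.02 in the atria and -0.15 in the ventricles. In the atria DESeq2 also called 0 of 9, with 2 at an unadjusted P value under 0.05, beside 30.2% of all genes. Between the chambers, 5 of 9 were called higher in the atria of both genotypes, Six5 among them, and 3 lower in controls and 1 in CUG960 +dox mice, beside 35.0% and 33.1% of all genes. With total counts 5 were called higher and 1 lower in each genotype, and 2 genes lost their calls in controls. Over all 18327 genes, total counts gave 7180 higher and 1537 lower in controls and 6148 and 1611 in CUG960 +dox mice. Six2 (1.297 and 0.969) and Eya4 (1.42 and 1.37) were higher in the atria. Of the 6 tested relatives and partners of DMWD, 0 were called with genotype by edgeR or DESeq2, beside 5.49% and 4.75% of all genes, with 2 in the atria and 1 in the ventricles at an unadjusted P value under 0.05, beside 30.2% and 25.7%. The deubiquitinase gene Usp46 was the only one called in control atria (0.68), beside 35.0% of all genes. With total counts 3 of the 6 were called higher in control atria, beside 7180 of 18327 genes. In CUG960 +dox mice 0 of the 6 were called between the chambers, beside 33.1% of all genes. With total counts 3 were called higher in CUG960 atria, beside 6148 of 18327 genes.

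Over the 12 libraries, the genes most like Dmpk in level were Gm5617 (Pearson r = 0.99 for log2 CPM), Cog8 (0.989), Lsmem2 (0.983), Hist1h4h (0.983) and Keap1 (0.981), out of 13064 genes compared. Keap1 encodes the adaptor that brings NRF2 to degradation and Cog8 a subunit of a Golgi tethering complex. After the means of the chambers were removed their r with Dmpk stayed between 0.923 and 0.967. Gm5617 stood at 3.36 CPM in control atria, 6.09 CPM in control ventricles, 4.22 CPM in CUG960 atria and 8.20 CPM in CUG960 ventricles. Dmwd ranked 2139th with r = 0.806 (0.562 within chambers), while Six5 had r = -0.764 over all libraries and 0.447 within chambers. Rock1 had r = -0.801 and -0.531. The libraries share 2 chambers, 6 mice and their scaling factors, so that these are descriptions of 12 points.

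As a check on the counting, 75-base windows of the transcripts of the 7 genes were looked up in the transcripts of other mouse genes. The human DMPK exons of the transgene were not searched, so the check does not cover reads from them. None of the 5128 windows of Dmpk, 2933 of Six5, 2624 of Dmwd, 22357 of Cdc42bpa or 7465 of Cdc42bpb recurred elsewhere. The shares were 0.529% for Rock1 and 0.259% for Rock2, and no window was shared between the 7 genes. Of the kinases, Cdc42bpa lies on chromosome 1 (chr1:179960472-180165603), Cdc42bpb and Rock2 on chromosome 12 (chr12:111292976-111377718 and chr12:16894895-16987823) and Rock1 on chromosome 18, so that only Dmwd and Six5 are physical neighbours of Dmpk.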

How the data were processed

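Poly(A) RNA of the 12 libraries had been made into stranded libraries, aligned to mm10 (GRCm38) and quantified per gene with RSEM 1.3.1 by the authors, who deposited a single table of expected counts (estimated counts, listed as whole numbers, not normalized). Whether the counting used strand is not given in the sources used here. Libraries were grouped by the genotype and tissue labels. Counts were fitted in edgeR 4.0.16 (R 4.3.3) with TMM scaling, filterByExpr and the quasi-likelihood test, each chamber alone for genotype and all 12 libraries for chamber and interaction. P values were adjusted by Benjamini-Hochberg over all genes tested, and calls needed 0.05 and a fold change of 1.5 (interaction, 0.05 alone). Alternatives included DESeq2 1.42.0, 3 other scalings, filters and each mouse left out. The script was tested on simulated data. Same-numbered atria and ventricles come from the same mouse, so chambers are paired. The correlation of deviations was 0.0302 to 0.135 within a mouse and -0.141 to 0.0536 between different mice of a genotype, so the ranges overlapped. Members and lists were chosen with earlier results of these data known. Some genes and lists are not reported here. Named genes were the 7 members, list genes or genes within 250 kb called with genotype, up to 3 per list called between chambers only, the 5 most like Dmpk, chamber markers and Myh6. Stk38, Lats1 and the genes near Dmpk called between chambers are exceptions, chosen with their values in view. Some markers of other cell types, such as Cfd, Adipoq and Acta2, the genes between Dmpk and Gipr and the kinase gene Cdc42bpg were also named outside that rule. Within-mouse tests, count ratios and shared windows were added after seeing the data. Positions came from GENCODE M21, promoters from RefSeq GRCm38.p6. No 2 replicates agreed within sampling noise (chi-square per degree of freedom 38.2 to 113).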

Additional observations from a re-analysis of the deposited data

Results flagged for a closer look

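3 marker genes differed between the chambers in their change with genotype by the interaction test (edgeR, all genes adjusted), which no gene of the Dmpk group did. Nppa, an atrial natriuretic peptide gene, had a difference of -1.72 between chambers (adjusted P = 0.0494), with 15890 ± 1098 CPM in control and 11870 ± 491 CPM in CUG960 atria against 62.6 ± 19.5 and 154 ± 68.9 CPM in the ventricles. The CUG960 ventricular libraries of V119, V120 and V123 held 86.6, 224 and 151.5 CPM of Nppa and the control ones 48.6 to 84.8 CPM. V123 also stood apart from its group in Myl7, Myl4 and Sln, whose part in these values was not tested. Without V123 the difference of Nppa was -1.73 (adjusted P = 0.154) and without V120 -1.38 (adjusted P = 0.177), and it passed only without V334 or V119. Bmp10, an atrial growth factor gene, had a difference of 4.10 (adjusted P = 0.00208), at 2.86 ± 0.772 CPM in control and 0.172 ± 0.124 CPM in CUG960 ventricles, and passed without any 1 mouse (highest adjusted P = 0.019). Tagln, a smooth muscle gene, had a difference of 1.85 (adjusted P = 0.0445), at 22.5 ± 8.55 and 52.0 ± 19.6 CPM in the atria and 39.2 ± 8.06 and 25.3 ± 4.68 CPM in the ventricles, and missed the threshold without V333, V334, V119 or V123.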

How the results depend on the processing

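With total counts and no TMM the genotype values changed sign for Rock2 in the atria (0.014) and for Cdc42bpa (0.027), Cdc42bpb (0.063), Rock1 (0.027) and Rock2 (0.042) in the ventricles. None of these passed an adjusted P value of 0.05 in edgeR under either scaling. The chamber values in controls became 0.061 for Dmpk, 0.31 for Dmwd, 0.54 for Cdc42bpa, 0.55 for Cdc42bpb, 0.79 for Rock1 (the last 4 passing) and 0.24 for Rock2, and in CUG960 +dox mice -0.12 for Dmpk, 0.036 for Dmwd, 0.35 for Cdc42bpa, 0.46 for Cdc42bpb, 0.59 for Rock1 (again the last 3 passing) and 0.21 for Rock2. The interaction value of Rock2 became -0.028. The share of called genes that were higher in the atria went from 52.9% to 82.4% in controls and from 52.3% to 79.2% in CUG960 +dox mice, and the share higher in CUG960 ventricles from 63.1% to 80.6%. With the control libraries alone Rock2 stood at -0.21 between the chambers and passed (adjusted P = 0.0457). Over all alternatives the member values kept direction and side of the threshold 384 times, changed sign 31 times and crossed the threshold with the same sign 12 times, 7 of them into significance and 5 out of it.

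With no fold limit 2573 genes were called with genotype in the atria, 1680 in the ventricles, 10268 between the chambers of controls and 9952 of CUG960 +dox mice, against 969, 804, 6420 and 6074 with the limit of 1.5. With a log2 limit of 1.5 these were 216, 199, 2462 and 2361. DESeq2 called 660 genes for the interaction against 253 in edgeR. The cause of the DESeq2 difference was not tested.

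Without any 1 mouse, the genotype values in the atria ran from 0.06 to 0.15 for Dmpk, 0.051 to 0.21 for Six5, -0.17 to -0.062 for Dmwd, -0.3 to -0.14 for Rock1, -0.29 to -0.13 for Cdc42bpa, -0.12 to 0.018 for Cdc42bpb and -0.12 to 0.082 for Rock2, and in the ventricles from 0.12 to 0.29 for Dmpk, 0.044 to 0.26 for Six5, -0.029 to 0.17 for Dmwd, -0.21 to 0.064 for Cdc42bpa, -0.096 to 0.029 for Cdc42bpb, -0.16 to 0.0019 for Rock1 and -0.13 to 0.0086 for Rock2. Between the chambers of controls they ran from -0.083 to 0.24 for Cdc42bpa, -0.036 to 0.2 for Cdc42bpb and 0.24 to 0.46 for Rock1, and in CUG960 +dox mice from -0.46 to -0.25 for Dmwd, -0.071 to 0.032 for Cdc42bpa and 0.13 to 0.36 for Rock1. The interaction count ran from 74 to 131, and its values from -0.16 to 0.085 for Six5, -0.28 to 0.045 for Cdc42bpa, -0.13 to 0.11 for Cdc42bpb, -0.26 to 0.031 for Rock1 and -0.04 to 0.16 for Rock2.

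With the mouse as a replicate block, the chamber value of Dmpk was -0.39 in controls and -0.50 in CUG960 +dox mice and that of Six5 0.92 and 0.90. The block changed no call among the 7 genes and gave 6367 and 6045 called genes in the chamber comparisons. With 3 mice per group, the spread between mice sets the precision more than depth does, the lowest count of any of the 7 genes in a library being 867.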
